A study of Mus musculus with 4 samples.

Results

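The genes described here are the cytokines, chemokines, their receptors and the JAK-STAT and SOCS genes that carried an m6A peak in mouse spinal cord. They were chosen by gene name: every gene in the deposited peak tables whose symbol begins with *Ccl*, *Ccr*, *Cxcl*, *Cxcr*, *Il*, *Socs*, *Stat* or *Jak* followed by a digit, or with *Tnf*, and *Cx3cl1*. Of 13558 gene names in the 3 tables, 73 met this rule. In MeRIP-seq, fragments of poly(A) RNA are pulled down with an m6A antibody to make the IP library, which is read beside an input library of RNA that was not pulled down. The animals were C57BL/6J mice, 6 to 8 weeks old, whose spinal cord was taken on day 7. In the CCI group (chronic constriction injury) loose silk ligatures had been placed on the sciatic nerve, and in the sham group the nerve was exposed in the same way and not tied. Each group had 1 IP and 1 input library, and the number of mice behind a library is not given in the sources used here. Differences between CCI and sham therefore stand without replicates, and none was tested.

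Cytokines and chemokines are secreted or shed ligands through which glia, neurons and immune cells signal to each other. Many interleukin receptors have no kinase of their own and rely on bound JAK kinases, which phosphorylate STAT transcription factors. STAT factors then switch on target genes, among them the SOCS genes, whose products inhibit the same receptors and kinases. Receptors of the TNF family signal through adaptor proteins to NF-κB or to cell death pathways. In the spinal cord these routes are known for glial activation and for pain hypersensitivity after nerve injury. The m6A mark, most frequent near stop codons and in 3′-UTRs, is known to affect the stability and translation of mRNA.

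The value given for each peak is the authors' fold enrichment, the ratio of IP over input signal within the borders of that peak. It describes how strongly the RNA was captured and is not a level of the mRNA. Read counts are not among the columns, which leaves the depth unknown and each fold enrichment without an error. In bulk tissue, fewer cells of a type and less RNA per cell cannot be told apart, and neither is separated here from the share of molecules that carry the mark. A missing peak also does not show that a gene was silent, since a peak needs both RNA and capture. How strand entered the peak calling is not stated, so a peak over overlapping or antisense genes cannot be assigned to either. Coordinates are those of the tables, for which the submitters' processing notes name GRCm38.

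The tissue was checked against marker genes. All 6 astrocyte markers, all 6 oligodendrocyte markers and 8 of 9 neuronal markers had a peak in each list, as did 7 of 8 microglial markers. Among the microglial markers, the highest peak of *Csf1r* had a fold enrichment of 182 in CCI and 74.4 in sham, and that of *Aif1* 13.0 and 37.2. No peak was listed for any of the 4 T cell, 3 B cell and 4 neutrophil markers. Of 5 markers of blood macrophages, *Cd163* was listed and *Ccr2*, *Lyz2*, *Ly6c2* and *Mrc1* were not. The Schwann cell gene *Prx* had peaks in both lists, the highest at 9.80 in CCI and 16.8 in sham. The part of cell composition in the values below was not tested.

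The CCI list held 138 peaks in 63 of the 73 genes, and the sham list 141 peaks in 71. Both lists shared 61 genes. A gene with a peak in the sham list only occurred 10 times among the 73, against 8.46% of all genes of either list. A gene with a peak in the CCI list only occurred 2 times, against 4.77%. The median fold enrichment of the peaks was 7.76 in CCI (middle 50% from 4.26 to 13.1) and 8.10 in sham (4.76 to 12.8). Over the whole lists it was 5.72 in CCI and 5.70 in sham. Most of these genes carried few peaks, with 27 genes in CCI and 28 in sham holding 1 peak.

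The peaks lay towards the 3′ ends of the transcripts. In CCI, 102 of 138 peaks (73.9%, 95% Wilson interval 66.0 to 80.5%, counting error only) were annotated to a 3′-UTR, against 49.8% of all CCI peaks. In sham, 95 of 141 (67.4%, 59.3 to 74.6%) were, against 48.9% of all sham peaks. Exons held 13.0% of the CCI peaks and 18.4% of the sham peaks of these genes, against 35.5% and 35.1% over the lists. Several peaks of 1 gene count more than once in these shares. When each gene was counted once per kind of region, the 3′-UTR share was 63.6% in CCI and 59.6% in sham, beside 47.5% and 46.6% for all genes. The middle of a peak lay at a median of 10.2% of the genomic span from the transcript end in CCI and 10.5% in sham, where all peaks gave 17.6% and 18.5%.

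Most peaks were present in both groups. A partner, a peak of the same gene sharing at least 1 bp of exonic sequence, existed for 116 of the 138 CCI peaks (84.1%, 77.0 to 89.2%) and for 111 of the 141 sham peaks (78.7%, 71.3 to 84.7%). Peaks without a partner numbered 22 in CCI and 30 in sham, beside 13.2% and 16.9% of all peaks. Ratios were taken in 105 pairs of mutual best partners. Their log2 ratio of fold enrichment, CCI over sham, had a median of 0.00, with the middle 50% from -0.46 to 0.57. Over all 27179 pairs it was 0.03, from -0.37 to 0.43. CCI was higher in 52 pairs and lower in 52. At least 2-fold higher in CCI were 13 pairs (12.4%), beside 8.6% of all pairs, and at least 2-fold lower were 11 (10.5%), beside 7.24%. The median of these genes thus lay at equal capture, with both directions represented equally often.

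The borders of a peak were called separately in each group, so that most ratios compare windows of different extent. Of the 105 pairs, 19 had the same borders in both lists. Of these 19 pairs, 1 was at least 2-fold higher in CCI (7.31% over all 5237 such pairs) and 0 were at least 2-fold lower (4.16%). CCI was higher in 14 of them and lower in 5, with a median of 0.20, beside 0.07 over all such pairs. The 1 pair was the 3′-UTR peak of *Cxcl14*. None of the 5 largest and 5 smallest ratios came from a pair with the same borders, and in 5 of those 10 pairs the shared sequence was under 50% of at least 1 of the peaks. The comparison of pairs with the same borders was chosen after seeing the data.

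**Figure D1:**
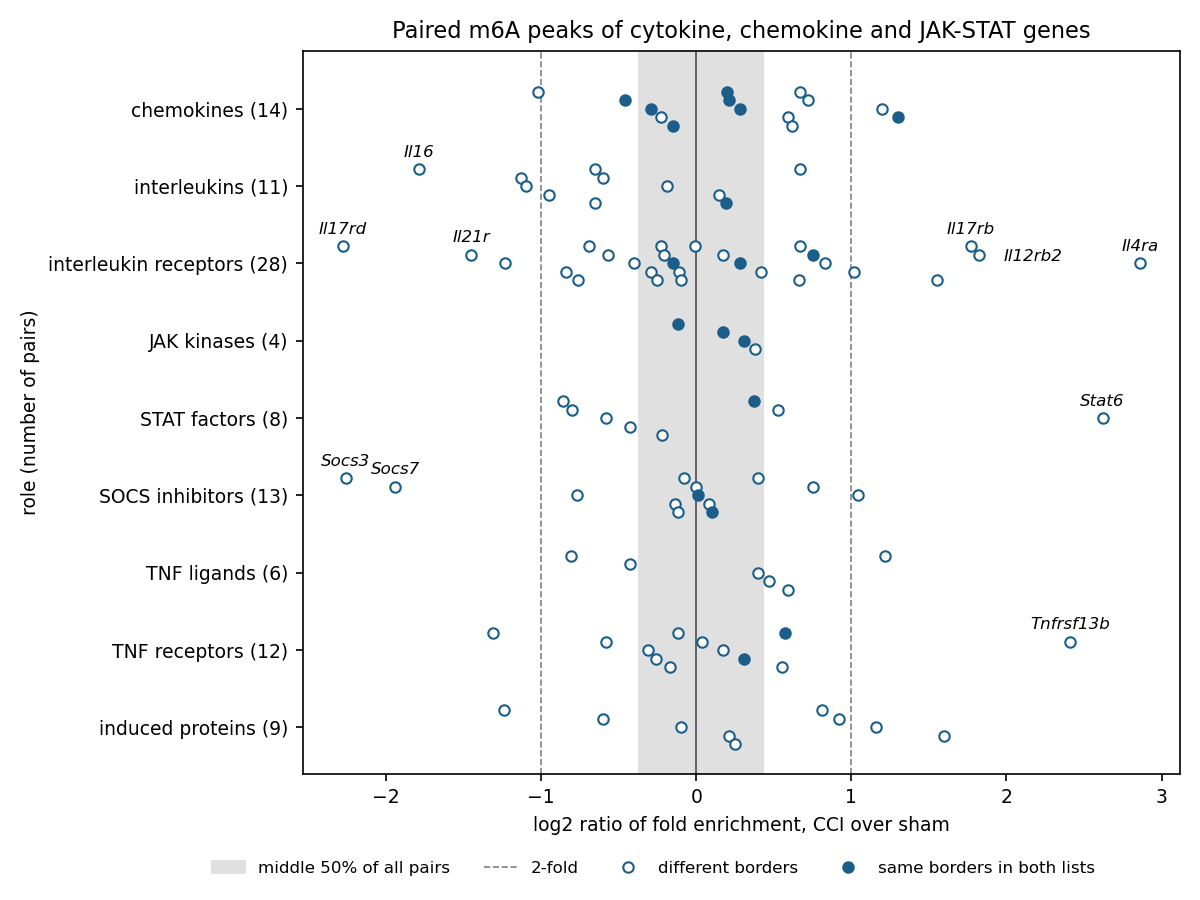
Log2 ratio of fold enrichment (CCI over sham, x axis) for the 105 pairs of peaks, 1 point per pair, grouped by role (y axis, number of pairs in brackets). Filled points have the same borders in both lists, the grey band is the middle 50% of all 27179 pairs (-0.37 to 0.43), dashed lines mark 2-fold and the 5 largest and 5 smallest ratios are named; all 10 are open points.

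Among the chemokines, 6 ligands had peaks in both lists and their 14 pairs had a median log2 ratio of 0.24. *Cx3cl1* encodes fractalkine, a neuronal ligand that acts on the microglial receptor CX3CR1. Its peak at chr8:94778904-94780418, which spans an intron and ends in the 3′-UTR, had the same borders in both lists and a fold enrichment of 6.47 in CCI and 8.92 in sham. The next 3′-UTR peak, again with the same borders, had 2.22 and 2.47. The last part of the 3′-UTR was a single sham peak at chr8:94781227-94782427 with 5.89, where the CCI list had a pair of peaks, at 3.15 and, nearer the transcript end, 9.67. The sham value spans the place of both CCI peaks, so the lists cannot be compared at the very end of the transcript. The pair of 9.67 and 5.89 was still counted, with a log2 ratio of 0.72 over windows that overlapped by 62.5%. At the first peaks, with the same borders, the fold enrichment of *Cx3cl1* was lower in CCI. The final peaks also lie over *Gm51543*, another RefSeq gene.

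*Cxcl12* encodes a chemokine that guides migrating cells through CXCR4. It had 4 peaks in each list, all in the 3′-UTR. The highest, at chr6:117177534-117177893 in both lists, had 20.9 in CCI and 17.2 in sham. The peak before it had 4.79 over 1169 bp in CCI and 9.74 over 660 bp in sham, a log2 ratio of -1.02. The CCI peak contains the whole sham peak.

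*Cxcl14*, a chemokine of epithelial and nervous tissue, differed between its ends. The 3′-UTR peak at chr13:56288673-56288942 had 13.1 in CCI and 5.33 in sham, with the same borders and a log2 ratio of 1.30. The 5′-UTR peak had 11.2 and 13.1. *Ccl25*, which attracts thymocytes and gut lymphocytes, had 1 peak, with 33.4 in CCI and 14.5 in sham, and *Ccl28*, a mucosal chemokine, had 16.7 and 10.5. The 3 peaks named *Ccl27a* had log2 ratios from -0.29 to 0.59. The peaks near its 3′ end also lie over *Il11ra1*, the receptor gene for interleukin 11, so that the source of the captured RNA cannot be told apart there.

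The interleukin ligands with a peak were *Il7*, *Il16*, *Il17d*, *Il33* and *Il34*. Their 11 pairs had a median log2 ratio of -0.65, with 8 lower in CCI. At least 2-fold lower were 3 (*Il16*, *Il34* and *Il17d*) and at least 2-fold higher 0, where 7.24% and 8.6% of all pairs were. *Il16* gave 6 of these 11 pairs, some of them over the same sequence. *Il34* encodes a ligand of the CSF1 receptor on microglia. Its 3′-UTR peak at chr8:110741829-110742066 had 23.8 in sham, and the CCI peak with the same left border had 10.9, a log2 ratio of -1.13. Its 5′-UTR peak had 2.35 in CCI and 3.57 in sham. Both paired peaks of *Il34* were therefore lower in CCI, but the 5′-UTR peak also lies over *Gm15894* and cannot be assigned to 1 gene.

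*Il16*, a chemoattractant for CD4-bearing cells, had the most listed peaks of all 73 genes over both lists together, 6 in CCI and 7 in sham. Some of these peaks overlap each other, so the rank holds for listed peaks and not for separate sites. Its longest peak was listed 2 times with slightly different exonic blocks, each with 8.09 in CCI and 12.7 in sham. A further 3′-UTR peak at chr7:83643094-83643244 had 2.93 in CCI, and its wider sham partner 10.1, a log2 ratio of -1.79. Another, at chr7:83643602-83644021 in both lists, had 5.92 and 5.18, so the peaks of this gene did not all differ in the same direction. *Il33*, an alarmin released by glia and other cells, had a weak 5′-UTR peak with 2.35 in CCI and 2.12 in sham. *Il17d* had a 3′-UTR peak with 5.04 and 3.17 and a second near its 5′ end with 13.0 and 27.9, values that peaks of 89 other genes in CCI and 28 in sham also had. *Il7*, a survival factor for lymphocytes, had 1 peak, in CCI, at 13.0.

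The receptors for interleukins were the largest group, with 22 genes in the sham list, 19 in the CCI list and 28 pairs. The median log2 ratio was -0.10, and 5 pairs were at least 2-fold higher in CCI and 3 at least 2-fold lower, beside 8.6% and 7.24% of all pairs. *Il6st* encodes gp130, the subunit shared by the receptors for interleukin 6 and related cytokines. Its main peak covered 1741 bp of the 3′ end in CCI and 1831 bp in sham, with 8.26 and 8.90. A 5′-UTR peak had 5.88 and 6.97, and a last pair, beyond the end of the RefSeq gene and sharing 31 bp, 6.78 and 11.5. All 3 pairs were lower in CCI and none by 2-fold. *Il6ra*, the subunit that binds interleukin 6, held the highest sham value of all these genes, at chr3:89869949-89870607 with 95.3, where the CCI peak had 53.2. Its neighbouring pair with the same borders had 10.1 in CCI and 8.32 in sham.

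*Il1r1* encodes the signalling receptor of interleukin 1. Its main 3′-UTR peak at chr1:40313135-40313792 was identical in borders, with 64.5 in CCI and 38.3 in sham, a log2 ratio of 0.75. In CCI there were also short peaks further on, with 3.96 and 4.69. *Il1rap*, its co-receptor, had 5.73 in CCI and 7.55 in sham at 1 peak and 8.18 and 6.10 at another. The related *Il1rapl1*, a synaptic adhesion molecule that matches by name, had 1 sham peak at 9.88, and *Il1rapl2* had 14.1 in CCI and 20.9 in sham.

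*Il4ra*, the receptor subunit shared by interleukins 4 and 13, had the largest ratio. A CCI peak at chr7:125575623-125576279 had 54.7, and the sham list had a pair of peaks inside it, at chr7:125575652-125575891 with 9.30 and at chr7:125575981-125576279 with 7.55. The log2 ratio to the second was 2.86, over windows that shared 45.5% of their joint length. The next peaks of *Il4ra* had 18.8 in CCI and 20.1 in sham, and 6.52 and 6.55. The high ratio of *Il4ra* thus belonged to 1 site of the 3′-UTR.

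*Il17rb*, a receptor for interleukin 25, had 30.2 in CCI and 8.86 in sham, with windows that overlapped by 80.9% and a log2 ratio of 1.77. *Il12rb2*, a receptor subunit for interleukin 12, had 8.60 and 2.44 (1.82) over windows that overlapped by 46.3%. *Il20ra*, a receptor subunit for interleukin 20, had 22.9 and 7.84, where the CCI peak overlapped a pair of sham peaks, the other with 6.20. *Il12rb1*, the other interleukin 12 subunit, had 6.60 and 3.25, a pair that fell just short of 2-fold when ratios were centred on all pairs. In the other direction, *Il17rd* had 5.73 in CCI and 27.9 in sham (-2.28), a value that the sham list also gives to peaks of 28 other genes. *Il21r*, the receptor for interleukin 21, had 7.04 and 19.2 (-1.45) at 1 peak and 19.3 and 45.3 at another, both lower in CCI. *Il10ra* and *Il10rb*, the receptor pair of interleukin 10, had 17.0 and 9.56, and 3.42 and 4.19. The pairs of *Il13ra1*, *Il15ra*, *Il17ra*, *Il20rb* and *Il2ra*, further subunits of interleukin receptors, had log2 ratios between -0.69 (*Il2ra*) and 0.66 (*Il15ra*).

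All 3 JAK genes with a peak were in both lists, and their 4 pairs had log2 ratios from -0.12 to 0.38. *Jak1* had a single 3′-UTR peak at chr4:101153057-101153326 in both lists, with 5.00 in CCI and 5.42 in sham. *Jak2* had 2 peaks in each list with the same borders, at 7.27 and 6.48 and, nearer the transcript end, at 19.5 and 15.7. *Jak3*, the kinase of lymphocyte cytokine receptors, had 16.7 and 12.8 at a peak that is listed 2 times per group and also lies over *Insl3*. No JAK pair reached a 2-fold difference. *Tyk2*, the remaining kinase of the family, had 3.95 in CCI and 3.24 in sham.

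Among the STAT genes, *Stat2*, *Stat3*, *Stat5b* and *Stat6* had peaks in both lists, and *Stat4* and *Stat5a* had none. *Stat2* acts in the response to type I interferon. Its 3 paired peaks were all lower in CCI. The peak nearest the transcript end, at chr10:128292400-128292819 in CCI, had 13.3, over 420 bp, and its sham partner, over 450 bp, had 23.2, a log2 ratio of -0.80. The peak at chr10:128290946-128291622 had 4.91 in CCI and 8.92 in sham (-0.86), and the first 4.99 and 6.71. A further peak, between these, was listed in CCI with 2.70 and had no sham partner.

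*Stat3*, the main target of gp130 receptors, had a weak exonic peak with 2.72 in CCI and 4.07 in sham. *Stat6*, which acts downstream of the interleukin 4 receptor, had the highest CCI value of all these genes. Its exonic peak at chr10:127657751-127659490 had 114 over 510 bp of exonic sequence, and the sham peak, at chr10:127657781-127658384, had 18.6 over 240 bp. The 3′-UTR peak of *Stat6* had 5.64 and 6.57. *Stat5b* had a 5′-UTR peak with 30.2 and 20.9. Of the 8 STAT pairs, 5 were lower in CCI and 3 higher.

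All 7 SOCS genes were listed in sham and 6 in CCI, and the median log2 ratio of their 13 pairs was 0.00. *Socs3* is induced by STAT3 and inhibits gp130 signalling. Its 3′-UTR peak at chr11:117967032-117967420 had 19.5 in sham. The CCI peak, at chr11:117967241-117967360, lay within it, 120 bp long, and had 4.08, a log2 ratio of -2.26. The exonic peak of *Socs3*, upstream in the transcript, had 7.47 in CCI and 8.13 in sham. Both peaks of *Socs3* were lower in CCI, and the 3′-UTR peak by more than 2-fold. *Socs7* had a sham peak of 66.2 across 1137 bp at its 5′ end, where the CCI list had a pair of peaks with 17.2 and 13.4. Its 3′-UTR pair with the same borders had 4.19 in CCI and 3.91 in sham.

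*Socs5* had the longest peak of the SOCS genes, 1734 bp in CCI and 1853 bp in sham, with 12.3 and 13.6, and a short 5′-UTR peak with 8.34 and 4.07. *Socs6* had 12.8 and 9.73 in its 3′-UTR, and 5.54 and 9.43 at an exonic peak. *Socs4* had 3.57 and 3.54 at a peak with the same borders and 7.77 and 4.62 in its 3′-UTR. *Socs1*, an inhibitor of interferon signalling, had 15.1 in both lists. *Socs2*, an inhibitor of growth hormone signalling, had 1 peak, in sham, at 16.3.

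**Figure D2:**
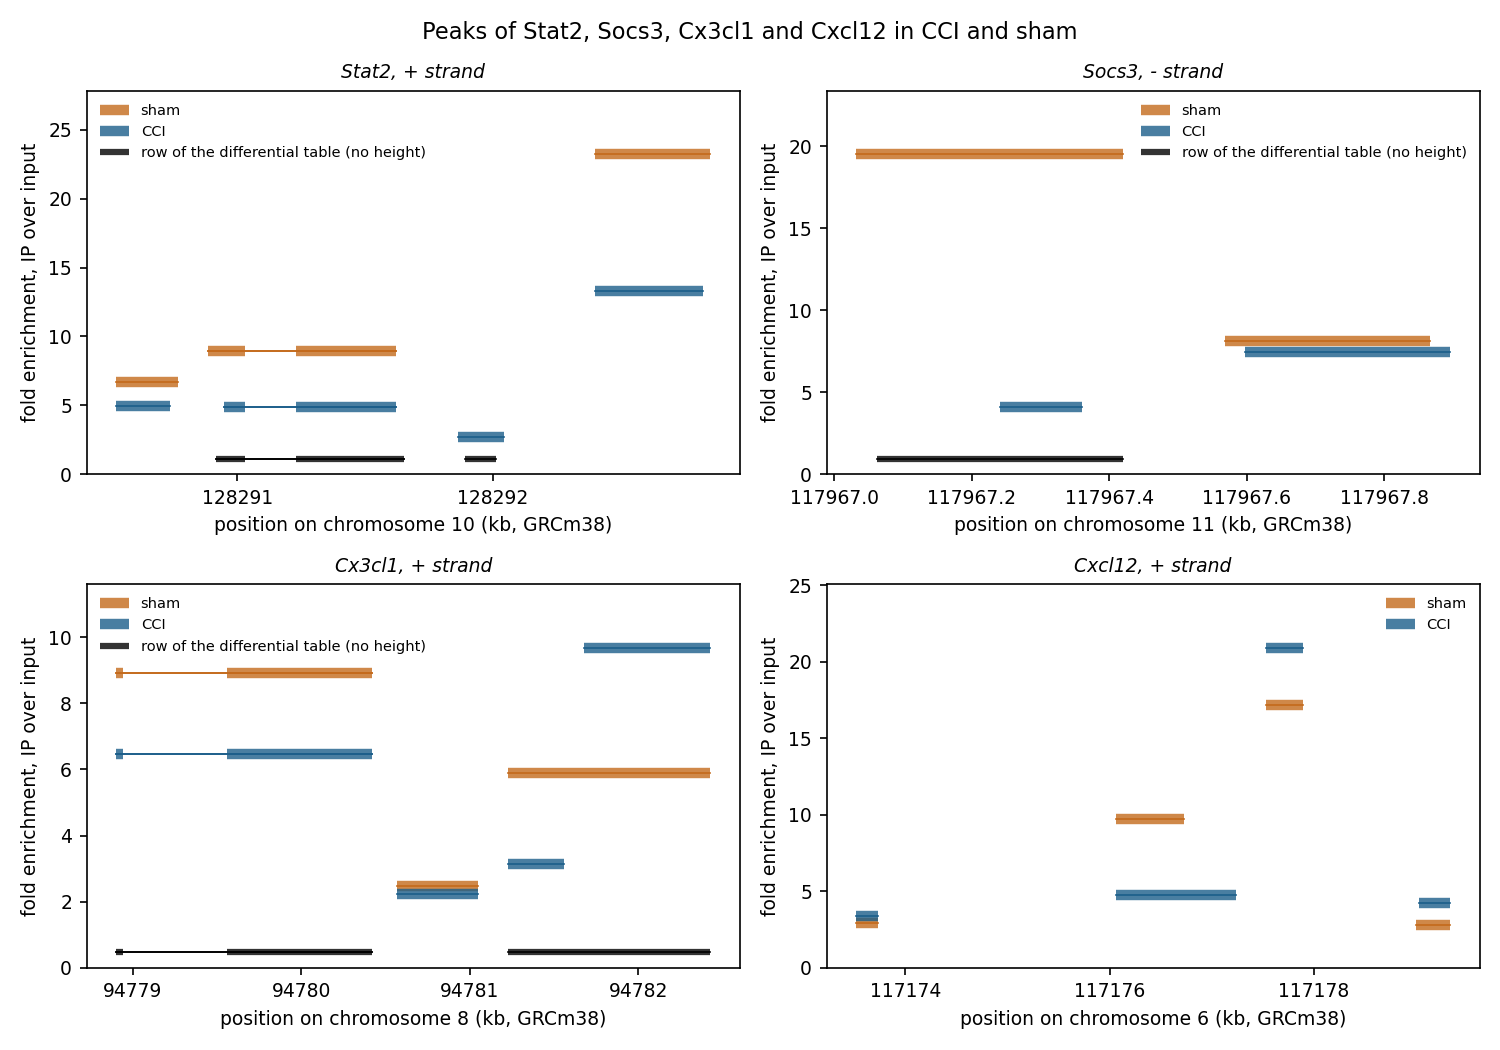
Peaks of *Stat2*, *Socs3*, *Cx3cl1* and *Cxcl12* drawn by position (x axis, kb on the chromosome) and fold enrichment of IP over input (y axis), with exonic blocks as thick bars and the sequence between them as thin lines. CCI peaks are blue, sham peaks orange, and black bars mark where the authors' differential table has a row; at *Stat2* the peak nearest the transcript end lies at 13.3 in CCI and 23.2 in sham.

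The TNF family held 4 ligand names and 12 receptor genes. *Tnfrsf1a*, the main receptor of TNF, had 10.9 in CCI and 16.3 in sham at its 3′-UTR peak at chr6:125361829-125362454, and 4.72 and 5.32 at the peak before it. *Tnfrsf1b*, the second TNF receptor, had 10.8 and 10.5, and 7.91 and 9.44. Neither receptor had a pair past 2-fold. *Tnfrsf13b*, a receptor for BAFF and APRIL on B cells, had 43.3 in CCI and 8.13 in sham, a log2 ratio of 2.41 over windows that overlapped by 77.8%. *Tnfrsf19* had a 5′-UTR peak with 3.00 and 7.44 (-1.31), which also lies over *Gm41167* and cannot be assigned to 1 gene. Its highest peak, with the same borders in both lists, had 17.8 and 12. *Tnfrsf21*, known as death receptor 6, had 11.6 and 9.36 at a peak with the same borders. *Tnfrsf11a* (RANK) had 13.6 and 12.1, and *Tnfrsf11b*, the decoy receptor osteoprotegerin, 3.82 and 4.16. *Tnfrsf18* and *Tnfrsf22* had peaks in both lists at different places and gave no pair.

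The TNF ligands with pairs were *Tnfsf10* (TRAIL), with 18.5 in CCI and 13.4 in sham, *Tnfsf13b* (BAFF), with 6.87 and 5.22 at 1 peak and 6.67 and 9.01 at another, and the read-through gene *Tnfsfm13*. The peaks of *Tnfsfm13* also lie over *Tnfsf12* or *Tnfsf13os* and cannot be assigned to 1 gene. *Tnfsf9* had 1 peak per list, at different places. In sham only, *Tnfrsf8* (CD30) had a peak at 12.8 and *Tnfrsf25*, a death domain receptor, had 3, the highest at 18.6. In CCI only, *Tnfrsf23*, a decoy receptor, had a peak at 6.52.

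The *Tnfaip* genes, grouped here as induced proteins, match by name and are not receptors or ligands. *Tnfaip3* encodes A20, an inhibitor of NF-κB. Its exonic peak had 13.8 in CCI and 14.8 in sham, and its 3′-UTR peak had 4.17 over 211 bp in CCI and 9.88 over 961 bp in sham, a log2 ratio of -1.24. The long sham peak covered 2 more CCI peaks, with 15.6 and 3.91, so this ratio describes 1 part of it. *Tnfaip8l2* had 12.8 and 11.1 at its longer pair, and *Tnfaip8l3* 4.85 and 7.36. *Tnfaip8* had 14.9 and 4.91 in its 3′-UTR. *Tnfaip1*, *Tnfaip2* and *Tnfaip8l1* had peaks in sham only, at 5.32, 16.3 and 26.7 for the highest. *Il4i1*, an amino acid oxidase, had 6 CCI and 3 sham rows, all of which also lie over *Il4i1b*, and some over *Nup62* and outside the RefSeq gene *Il4i1*.

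Several of the best known mediators had no row in any table: *Tnf*, *Il1b*, *Il6*, *Il10*, *Il18*, *Ccl2*, *Ccl7*, *Cxcl10*, *Cxcr4* and *Ccr2*. The receptor genes *Il1r1*, *Il6ra* and *Tnfrsf1a* thus had peaks, while *Il1b*, *Il6* and *Tnf* had none. Also listed in sham only were *Il17re*, at 13.9, and *Il3ra*, at 6.97.

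Part of the values came from peaks whose fold enrichment and false discovery rate were both identical to those of peaks in other genes. In CCI, 21 of the 138 peaks (15.2%) shared both values with peaks of at least 10 other genes, against 5.86% of all CCI peaks, and in sham 26 of 141 (18.4%), against 8.68%. These peaks reached a log10 false discovery rate of -4.76 at most in CCI and -6.06 in sham, and their fold enrichments went up to 19.3 and 27.9. Among the genes of 1 list, the values given for *Il7*, *Tnfrsf23*, *Il17re*, *Il1rapl1*, *Il3ra*, *Socs2*, *Tnfaip2*, *Tnfaip8l1*, *Tnfrsf8* and *Tnfrsf25* were of this kind. So were both values of *Socs1*, *Il1rapl2*, *Il20rb*, *Il2ra* and the 5′ pair of *Il17d*. In CCI alone they were the values of *Ccl28* and *Jak3*, 3.96 of *Il1r1* and 19.3 of *Il21r*, and in sham alone 27.9 of *Il17rd* and 7.84 of *Il20ra*. For 9 of the 63 genes in CCI and 12 of the 71 in sham, no other peak was listed.

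The authors' table of differential peaks had rows for 10 of the 73 genes, against 25.3% of all genes of the 3 tables. These were *Cx3cl1*, *Il12rb2*, *Il16*, *Il34*, *Socs3*, *Socs6*, *Stat2*, *Tnfaip1*, *Tnfaip8* and *Tnfrsf19*, with 18 rows. By peak, 17 of the 138 CCI peaks (12.3%, 7.84 to 18.8%) were overlapped by a row of the same gene, against 15.3% of all CCI peaks. In sham it was 17 of 141 (12.1%, 7.67 to 18.5%), against 14.1%. The peaks of *Stat6*, *Il4ra*, *Tnfrsf13b* and *Il17rb*, with 4 of the 5 largest ratios, had no row there.

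Further genes of these pathways were read from a list of 82 outside the name rule. Of these, 54 had a peak in CCI and 59 in sham. In their 108 pairs the median log2 ratio was 0.01, and 7 were at least 2-fold higher in CCI and 9 at least 2-fold lower, where 8.6% and 7.24% of all pairs were. *Cx3cr1*, the fractalkine receptor of microglia, had 135 in CCI and 103 in sham in the pair that held the highest value among its pairs, and the same choice was made for the following genes. *Irak2*, a kinase downstream of interleukin 1 receptors, had 5.04 and 31.4 (-2.64). *Ripk1*, a kinase of TNF receptor signalling, had 15.0 and 3.98 (1.91), while its highest peak, at 18.6, was in sham and had no pair. *Lifr* and *Osmr*, which pair with gp130, had 12.8 and 14.4, and 12.1 and 7.16. *Ifnar2*, a subunit of the type I interferon receptor, had 115 and 83.7. These 6 genes were picked from the list after their values were seen.

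Where a peak covered the start of a transcript, the first 50 bases were read from RefSeq promoter windows (GRCm38.p6) to see the sequence under the peak. All 73 gene names were RefSeq symbols, and 5 windows of 4 genes, *Il33*, *Il6st*, *Stat5b* and *Tnfrsf18*, had at least 25 bases in a peak. The letters GGAC, the core of the sequence in which m6A is most often found, were searched on both strands. They occurred on the transcript strand in 1 of the 5 windows and on the other strand in 0. Over all 32817 windows of this length, 18.8% held them on the transcript strand and 17.4% on the other. The match was in *Il6st*, in the 5′-UTR peak with 5.88 in CCI and 6.97 in sham. The stretch around it, chr13:112464104-112464119 on the plus strand, is shown with the match in capitals.
Il6st: tcagcggcGGACggag
The match is a description of the sequence and does not place the mark. The sequences of the 3′-UTR peaks, which make up most of the peaks of these genes, were not read, since a genome was not used here.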

How the data were processed

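MeRIP-seq libraries of the spinal cord, an IP and an input for CCI and for sham, were the source of the peak lists. The submitters' processing notes name fastp, HISAT2, HOMER, ChIPseeker and GRCm38, whereas the methods of the paper name Cutadapt, bowtie, MACS2 and ChIPseeker, and the columns of the tables are named as in exomePeak output. Which of these made the tables is not settled. The library kit keeps strand, and its use in peak calling is not stated. Fold enrichment is the authors' deposited ratio of IP over input, from peak calling in each group. The deposited log10 false discovery rate of a peak was handled as a score, since some values are minus infinity. The table of differential peaks also holds the authors' own fold changes and p-values between the groups, which were not used; only the positions of its rows were.

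Genes were selected by name. Peaks were compared by exonic blocks within a gene, with an overlap of at least 1 bp, and ratios were taken in pairs that were mutual best partners by shared over joint bases. No pseudocount was used. A pair was called at 2-fold. Shares carry 95% Wilson intervals for counting error only. Peaks that lie over another RefSeq gene were found by position. Beyond those named above, peaks of *Il13ra1*, *Il1rap*, *Il2ra*, *Il33*, *Tnfrsf18* and, in sham, *Tnfaip8* also lie over another RefSeq gene. Named were all genes of a fixed core list, the 5 highest peaks per list, the 5 largest ratios each way, genes in 1 list only and the 3 genes with the most peaks. Other genes were named after their values were seen, and some genes that these rules take are not reported here. *Il4i1* was to be counted with the interleukins by its name and was moved to the induced proteins, since it is an enzyme. The members and lists were chosen with earlier results of these data known. The alternatives covered the fold enrichment and false discovery rate of the peaks, the overlap, centring, 1 value per gene, the fold, the members and the unit of counting. Leaving out tied values, leaving out peaks over another gene and keeping pairs with the same borders were added after seeing the data. The pairing was tested on simulated data, with peaks of 1 exonic block that lay far apart and had at most 1 true partner. Split, merged or overlapping peaks, as at *Il4ra*, *Socs7* or *Il16*, were not simulated, so the pairing of such peaks was not tested. The software was pandas 2.3.3 and numpy 2.4.6 under Python 3.11.15, with scipy 1.17.1, and matplotlib 3.10.9 for figures.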

Additional observations from a re-analysis of the deposited data

How the results depend on the processing

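No paired analysis was possible because no value came from a test and a group held a single IP and a single input library. Of 101 recomputed summary values (counts, shares and medians over the genes), 81 stayed within their interval, within 1.5 times the count or at the same median, and 0 changed direction past 2-fold. With an overlap of 50% of both peaks, 62.3% of the CCI peaks and 61.0% of the sham peaks had a partner, and 8 pairs were at least 2-fold higher in CCI and 7 lower. With the highest peak of each gene, 8 genes were higher and 5 lower, with a median log2 ratio of 0.15. At 1.5-fold, 26 pairs were higher and 23 lower. In pairs with the same borders, 1 was higher and 0 were lower, with a median of 0.20; there are fewer such pairs. The median log2 ratio of 0.00 became 0.01 at a false discovery rate below 0.01, 0.01 without the *Tnfaip* and *Il1rapl* genes, 0.01 without tied values, -0.03 when centred on all pairs, which shifted the ratio of each of the 105 pairs by 0.03 and turned a *Socs4* pair from 0.01 to -0.01, and -0.04 without peaks over another gene. The values without ties, without peaks over another gene and for the same borders were chosen after seeing the data. With 1 count per gene and kind of region, the 3′-UTR share in CCI was 63.6%. In bases, the peaks lay a median of 2034 (CCI) and 2167 (sham) from the transcript end. The cause of these differences was not tested. Unknown depth limits every fold enrichment.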
